A study of Mus musculus with 6 samples.

Results

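The Wnt negative feedback genes are genes that Wnt signalling switches on and whose products restrain the same pathway. They were followed here in AKP organoids, epithelial cultures grown from mouse intestinal tumours, and were chosen by gene symbol: Axin2, Nkd1, Nkd2, Notum, Wif1, Apcdd1, Rnf43, Znrf3, Sp5 and Kremen1. All 10 had a row among the 23224 genes of the deposited expected-count table, and 8 of them were abundant enough to test. The RNA came from 3 libraries labelled SOX17KO, in which Sox17 had been targeted by CRISPR-Cas9, and 3 libraries labelled Control, all from in vivo tumour-derived AKP organoids. AKP organoids carry a mutation of Apc among others, which both groups then share. The labels do not say whether the libraries of a group came from separate clones, cultures or mice, and p-values here reflect only how these 6 libraries vary, which may be technical.

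In the canonical pathway a Wnt ligand binds Frizzled and LRP receptors, the complex that destroys beta-catenin is inhibited, and beta-catenin enters the nucleus and acts with TCF/LEF factors. The feedback products act at each level of this chain, from the ligand outside the cell to the transcription factors. Apc is part of the destruction complex, and in Apc-mutant intestinal cells beta-catenin is stable without a ligand, so that several of these genes are known to be highly expressed there.

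Promoter sequences bear on these genes because TCF/LEF factors recognise a short stretch of DNA. RefSeq gave windows on GRCm38.p6 (the submitters name the older mm9) from 250 bases before to 50 bases after the annotated start for 6 of the 10 members. The letters searched were CTTTGAA and also CTTTGAT and also CTTTGTA and also CTTTGTT, on both strands, and matches did not overlap. Of 32851 such windows in the whole table, 16.9% held at least 1 match and 1.94% at least 2. Sp5 was the 1 member among the 6 with a match, and it had 2, which begin at bases 29 and 147 of the window. Those shown are the windows of Sp5, the 1 member that passed the test below, of Nkd1, the member with the widest range, and of Axin2, the most used reporter of the pathway. Capitals mark the matches, and no match says only that these letters are not in this window.
Sp5, plus strand, chr2:70474673-70474972: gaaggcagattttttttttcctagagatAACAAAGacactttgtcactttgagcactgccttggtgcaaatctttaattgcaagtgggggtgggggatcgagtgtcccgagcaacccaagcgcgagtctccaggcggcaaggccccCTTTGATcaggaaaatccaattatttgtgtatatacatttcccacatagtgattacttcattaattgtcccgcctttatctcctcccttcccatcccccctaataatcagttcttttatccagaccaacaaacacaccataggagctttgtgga
Nkd1, plus strand, chr8:88527383-88527682: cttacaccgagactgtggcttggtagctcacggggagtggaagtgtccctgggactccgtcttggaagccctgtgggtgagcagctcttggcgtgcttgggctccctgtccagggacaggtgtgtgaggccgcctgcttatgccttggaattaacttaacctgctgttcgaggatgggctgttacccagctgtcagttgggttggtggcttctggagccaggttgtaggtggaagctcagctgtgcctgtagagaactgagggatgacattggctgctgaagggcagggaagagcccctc
Axin2, plus strand, chr11:108920099-108920398: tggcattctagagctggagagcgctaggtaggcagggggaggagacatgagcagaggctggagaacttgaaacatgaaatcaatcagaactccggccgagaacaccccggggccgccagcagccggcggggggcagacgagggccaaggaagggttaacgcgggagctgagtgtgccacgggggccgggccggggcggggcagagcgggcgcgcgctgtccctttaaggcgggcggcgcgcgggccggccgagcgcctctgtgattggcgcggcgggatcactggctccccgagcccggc

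Library totals were between 18290912 and 27503254 expected counts. Sox17 was at 33.8, 41.9 and 45.1 CPM (the count scaled to the size of its library) in SOX17KO replicates 1, 2 and 3, against 34.4, 34.5 and 34.2 CPM in the Control libraries, so its RNA level was not lower and does not check the label. Sox17 was not called (edgeR adjusted p = 0.345), but it was called higher without replicate 1 of SOX17KO (log2 fold change 0.34, edgeR adjusted p = 0.0113) and with limma-voom and library quality weights (0.30, adjusted p = 0.0302). SOX17KO replicate 1 stood apart. Across the tested genes, which are not independent of each other, its log2 CPM correlated with those of the other SOX17KO libraries at 0.960 and 0.963, against 0.986 between those other two and 0.994 to 0.995 among Control libraries. With the Control libraries, SOX17KO replicate 1 correlated at 0.946 to 0.951, and SOX17KO replicates 2 and 3 at 0.968 to 0.970. Values without SOX17KO replicate 1 are given beside the results it moves most. Calls shifted over the whole table too. Without SOX17KO replicate 1, 22.2% of all tested genes were called, against 6.87% with all 6 libraries. Without any one Control library the share was 1.56% to 1.64%.

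In Control organoids 3 members carried most of the feedback RNA. Axin2, Notum and Rnf43 together held 85.4% to 85.8% of the summed CPM of the 10 members in each Control library. Levels between genes were compared per kilobase of the longest protein-coding GENCODE M21 transcript. On that scale Notum came first at 92.3 ± 3.65 CPM per kilobase in Control (SD, n = 3), then Rnf43 at 47.7 ± 4.65, Axin2 at 35.9 ± 2.69, Kremen1 at 12.4 ± 0.857 and Znrf3 at 4.68 ± 0.289 CPM per kilobase. Nkd1 followed at 0.745 ± 0.0506 and Sp5 at 0.642 ± 0.0605 CPM per kilobase, and the ranges of these neighbours overlapped (0.692 to 0.792 and 0.586 to 0.706). Apcdd1, Wif1 and Nkd2 came last, at 0.0798, 0.0166 and 0.00397 CPM per kilobase. Among the first 7, no other pair of neighbours overlapped. The order of the top 3 depends on the transcript chosen: with the median length of the protein-coding transcripts Axin2 came first. In SOX17KO the mean of Nkd1 ranked 4, above Kremen1 and Znrf3, but that mean rests on replicate 1: without it Nkd1 ranked 6, below both.

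**Figure D1:**
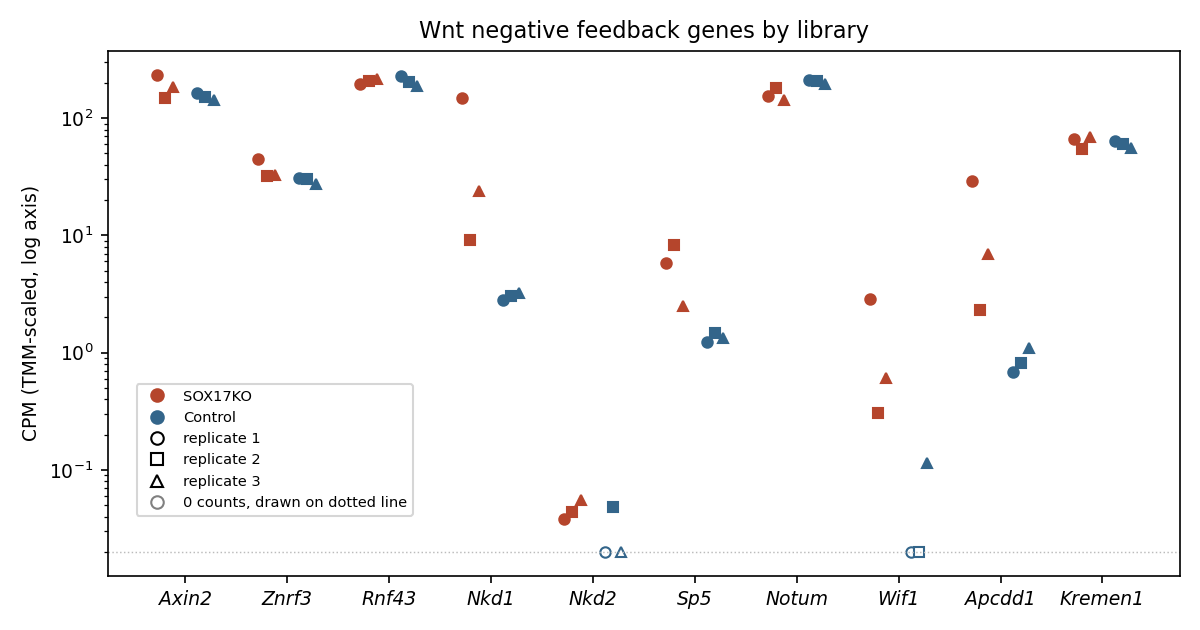
CPM of the 10 members (log axis) in each library, with SOX17KO left of Control for every gene and the symbol giving the replicate. Nkd1, Apcdd1, Wif1, Sp5 and, narrowly, Znrf3 lie above all Control libraries in all 3 SOX17KO libraries, and Notum lies below. Axin2, Rnf43, Kremen1 and Nkd2 overlap between groups. Libraries with 0 counts are drawn as open symbols on the dotted line.

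The members did not move together. Of the 8 tested, 1 (Sp5) was called higher and 0 lower in SOX17KO, while 3.67% of the 12137 tested genes were called higher and 3.20% lower (edgeR quasi-likelihood test, Benjamini-Hochberg adjusted p below 0.05), or 6.87% in either direction. At an unadjusted p below 0.05 there were 4 members, 3 higher and 1 lower, beside 20.3% of all tested genes. By DESeq2 4 members were called higher and 1 lower, and 10.7% of the 13399 genes with an adjusted p were called (771 higher and 668 lower). The groups did not overlap for 5 tested members, with SOX17KO above Control for 4 and below for 1; over all tested genes the shares were 14.0% above and 14.2% below. The median log2 fold change of the 8 was 0.31, against 0.01 over all tested genes. All 8 were above the filter's level of 0.415 CPM in every Control library, so none was tested only because it was high in SOX17KO. In bulk RNA, a change in the share of cells of a type and a change in RNA per cell cannot be told apart.

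Among the nuclear and cytoplasmic feedback proteins, Sp5 is a zinc finger transcription factor that Wnt induces and that represses other Wnt targets. Sp5 was at 5.84, 8.30 and 2.49 CPM in replicates 1, 2 and 3 of SOX17KO, against 1.23, 1.48 and 1.33 CPM in the Control libraries. Every SOX17KO library was above every Control library, with replicate 2 the highest and replicate 3 closest to Control. Its mean was 5.54 ± 2.91 CPM in SOX17KO and 1.35 ± 0.127 CPM in Control (SD, n = 3 each), and Sp5 rose by 2.04 ± 0.43 on the log2 scale (SE), or 4.13-fold (edgeR adjusted p = 0.0350). These are low levels: the SOX17KO libraries held 153, 189 and 45 counts and the Control libraries 34, 31 and 35. With SOX17KO replicate 1 left out the change was 2.02 (edgeR adjusted p = 0.00622). Sp5 was not called without SOX17KO replicate 2 (log2 fold change 1.64, edgeR adjusted p = 0.0682) or without any one Control library (edgeR adjusted p 0.141 to 0.169), nor with limma-voom (adjusted p = 0.0763).

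Nkd1 and Nkd2 are the vertebrate naked cuticle proteins, which bind Dishevelled and dampen the signal inside the cell. Nkd1 was at 148, 9.17 and 24.1 CPM in replicates 1, 2 and 3 of SOX17KO, against 2.82, 3.06 and 3.23 CPM in the Control libraries. All SOX17KO libraries were above all Control libraries, but they were far from each other: relative to the Control mean the ratios were 48.7, 3.02 and 7.93. The fitted log2 fold change of 4.32 ± 1.03 (SE; 95% interval 1.88 to 6.76, not adjusted for the number of genes) missed the threshold (edgeR adjusted p = 0.0550). With SOX17KO replicate 1 left out the estimate was 2.44 and the gene was called (edgeR adjusted p = 0.000605), and it was also called without SOX17KO replicate 2 (4.83, edgeR adjusted p = 0.0222). Nkd2 had 1 count in each SOX17KO library, against 0, 1 and 0 counts in the Control libraries. Both groups of Nkd2 are at or below 3 counts in all, so no fold is given.

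Axin2, a scaffold of the destruction complex, was at 235, 149 and 184 CPM in replicates 1, 2 and 3 of SOX17KO, against 165, 152 and 142 CPM in the Control libraries. SOX17KO replicate 2 lay within the Control range and the other two above it. The log2 fold change of Axin2 was 0.31 (95% interval -0.08 to 0.70; edgeR adjusted p = 0.369), and 0.12 without SOX17KO replicate 1 (edgeR adjusted p = 0.454).

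**Figure D2:**
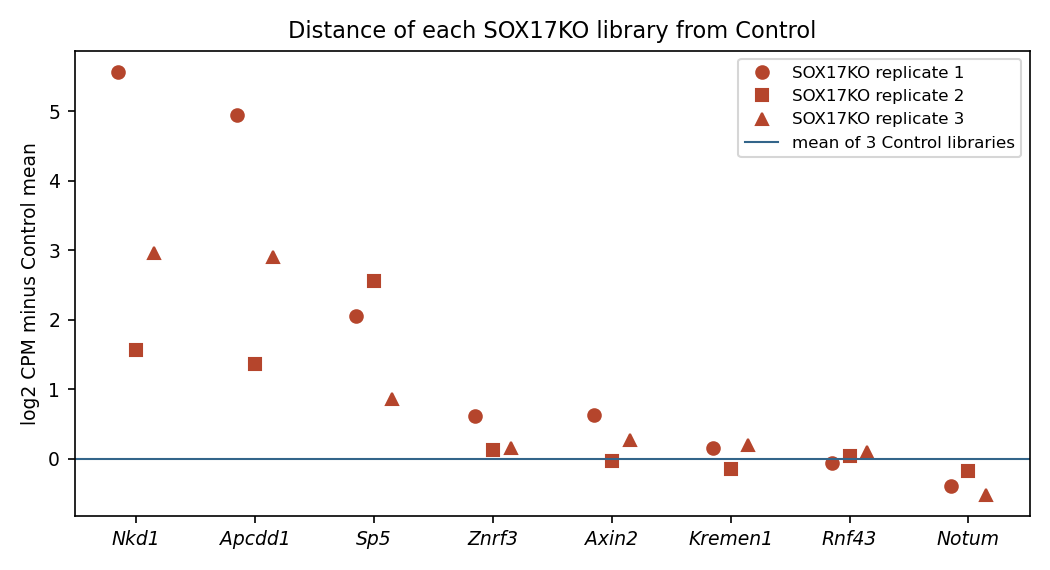
Log2 CPM (prior count 2) of each SOX17KO library minus the mean of the 3 Control libraries, for the 8 tested members in order of fitted change. For Nkd1 and Apcdd1 the 3 SOX17KO libraries are spread over several log2 units in the order replicate 1, 3, 2, whereas for Sp5 replicate 2 is the highest.

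At the membrane, Rnf43 and Znrf3 are related ubiquitin ligases that remove Frizzled receptors from the cell surface, and Kremen1 is a receptor for Dickkopf proteins that takes LRP6 off the surface. Rnf43 was at 196, 209 and 218 CPM in replicates 1, 2 and 3 of SOX17KO, against 227, 202 and 187 CPM in the Control libraries. The groups overlapped, and the log2 fold change was 0.02 (95% interval -0.21 to 0.24; edgeR adjusted p = 0.955). A lncRNA gene, 1110028F11Rik, overlaps Rnf43 in RefSeq, and as the strand setting of the counting is not given, reads of the pair may have been shared. That gene had a log2 fold change of 0.50 and was not called. Znrf3 was at 45.1, 32.0 and 32.9 CPM in replicates 1, 2 and 3 of SOX17KO, against 30.7, 30.4 and 27.4 CPM in the Control libraries. The SOX17KO libraries were all above Control, replicate 1 by far the most, and the log2 fold change of 0.31 (95% interval -0.03 to 0.66) was not called (edgeR adjusted p = 0.298). With SOX17KO replicate 1 left out the estimate for Znrf3 was 0.13 (edgeR adjusted p = 0.310).

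The ratio of the 2 ligases within a library does not depend on scaling. Reads of Rnf43 outnumbered those of Znrf3 by 4.34, 6.54 and 6.62 times in SOX17KO replicates 1, 2 and 3, against 7.39, 6.63 and 6.83 times in the Control libraries. SOX17KO replicate 1 was low and the other two lay just under Control. The mean log2 ratio was 2.52 ± 0.35 in SOX17KO and 2.79 ± 0.08 in Control (SD, n = 3 each), a difference of -0.28 with an exact two-sided permutation p of 0.1, the smallest that 20 splits allow. Without SOX17KO replicate 1 the difference was -0.08.

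Kremen1, which neighbours Znrf3 on chromosome 11, was at 66.9, 54.1 and 69.0 CPM in replicates 1, 2 and 3 of SOX17KO, against 64.1, 60.4 and 55.8 CPM in the Control libraries. SOX17KO replicate 2 was the lowest of the 6 libraries and replicate 3 the highest. The log2 fold change was 0.07 (95% interval -0.19 to 0.34; edgeR adjusted p = 0.801).

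Among the secreted and cell surface antagonists, Notum is an enzyme that strips the lipid from Wnt ligands and so inactivates them. Notum was at 155, 179.7 and 143 CPM in replicates 1, 2 and 3 of SOX17KO, against 210.0, 208 and 195 CPM in the Control libraries. It was the 1 member whose SOX17KO libraries all lay below Control. Its mean was 159 ± 18.8 CPM in SOX17KO and 204 ± 8.08 CPM in Control (SD, n = 3 each), and the log2 fold change of -0.36 ± 0.10 (SE; 95% interval -0.60 to -0.12) missed the threshold (edgeR adjusted p = 0.0915). It was called lower without SOX17KO replicate 1 (log2 fold change -0.34, edgeR adjusted p = 0.0301) and without SOX17KO replicate 2 (-0.46, edgeR adjusted p = 0.0405).

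Apcdd1, a membrane glycoprotein that inhibits Wnt signalling at the receptor, was at 29.0, 2.33 and 6.93 CPM in replicates 1, 2 and 3 of SOX17KO, against 0.688, 0.813 and 1.10 CPM in the Control libraries. The SOX17KO libraries were all above Control, in the same order as for Nkd1, at 33.4, 2.68 and 7.98 times the Control mean. The log2 fold change of 3.87 ± 0.92 (SE; 95% interval 1.70 to 6.05) missed the threshold (edgeR adjusted p = 0.0544). Without SOX17KO replicate 1 Apcdd1 was called with a log2 change of 2.38 (edgeR adjusted p = 0.00324), and without SOX17KO replicate 2 at 4.37 (edgeR adjusted p = 0.0182). The Control libraries held 19, 17 and 29 of its counts, which limits the precision of these folds.

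Wif1, a secreted protein that binds Wnt ligands, was too low to test. It had 75, 7 and 11 counts in SOX17KO replicates 1, 2 and 3, against 0, 0 and 3 counts in the Control libraries. Replicate 1 held most of the SOX17KO counts, and every SOX17KO library was above every Control library. Scaled to library size, the ratio of the summed counts was 34.6, with a 95% exact interval of 11.5 to 171 that covers counting error only. Without replicate 1 of SOX17KO, 18 counts remained in that group and the ratio was 11.0 (3.21 to 58.3). DESeq2 called Wif1 higher, as did edgeR without SOX17KO replicate 2, whereas edgeR with no low-count filter did not call it.

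**Figure D3:**
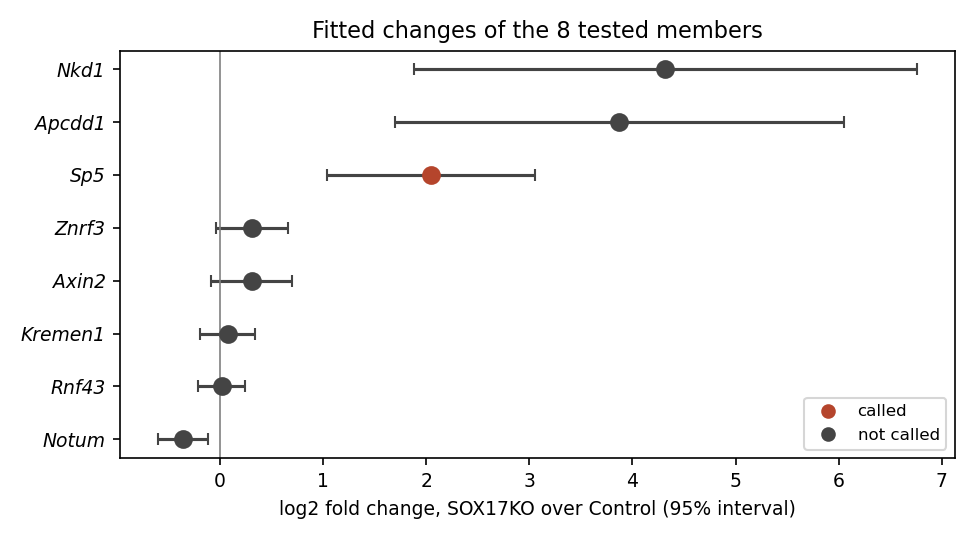
Log2 fold change of SOX17KO over Control for the 8 tested members, with 95% intervals from the edgeR fit that are not adjusted for the number of genes. The intervals of Nkd1, Apcdd1 and Notum exclude 0 although their adjusted p misses the threshold, and Sp5 is the 1 called member.

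Nkd1 and Apcdd1 followed each other across the libraries. The ratio of Nkd1 to Apcdd1 counts was 5.11, 3.94 and 3.48 in SOX17KO replicates 1, 2 and 3, against 4.11, 3.76 and 2.93 in the Control libraries, while each gene varied by more than an order of magnitude. As a measure of likeness, the root mean square difference of centred log2 CPM was taken over the 6 libraries. Of the other 12136 tested genes Apcdd1 was the closest to Nkd1, at 0.258. The next were Prelp at 0.326, Car13 at 0.415, R3hdml at 0.419 and Zfp503 at 0.422. Prelp, R3hdml and Zfp503 were under the filter's level of 0.415 CPM in every Control library, and Car13 in Control replicate 1. Each of these passed the filter only with SOX17KO libraries, where it was high. Of the other tested members Sp5 ranked 324 at 1.54, Axin2 896 at 1.83 and Znrf3 982 at 1.85, all far from the distance of Apcdd1. Kremen1, Rnf43 and Notum ranked 3147, 6534 and 10197. The pair of Nkd1 and Apcdd1 was picked after its values were seen, so the likeness is a description.

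**Figure D4:**
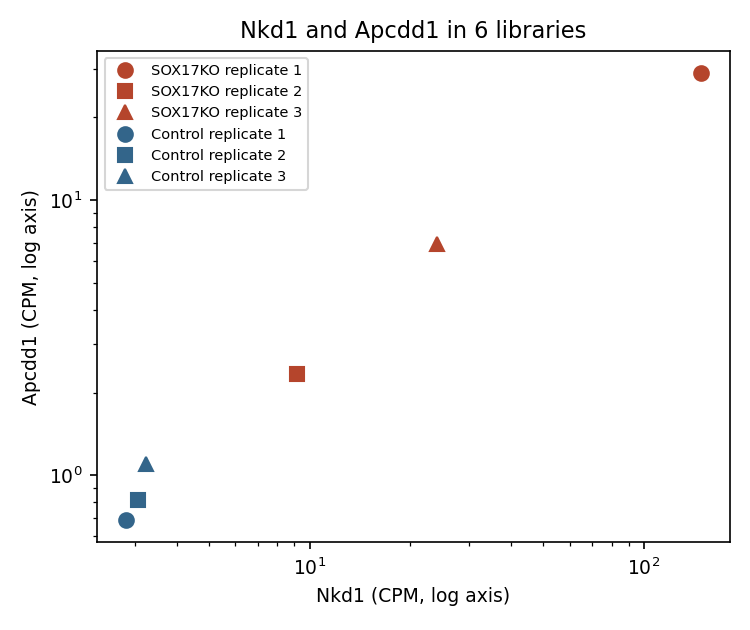
Apcdd1 against Nkd1 in CPM (both axes log) in the 6 libraries, SOX17KO and Control by colour and replicates by symbol. The libraries lie along one line, with the Control libraries together at the low end and SOX17KO replicate 1 at the high end.

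For Sp5, the member with the smallest p, the most similar genes on that measure were Cp, which encodes ceruloplasmin, at 0.271, Zfp512 at 0.340, AW112010 at 0.358, Gde1 at 0.380 and Cpne2 at 0.395. Cp was at 17.8, 15.8 and 7.65 CPM in replicates 1, 2 and 3 of SOX17KO, against 3.65, 5.02 and 4.60 CPM in the Control libraries.

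The order of the SOX17KO libraries split the members. Nkd1, Apcdd1, Axin2 and Znrf3 had replicate 1 highest, then 3, then 2, an order that 18.9% of all tested genes shared. For Znrf3 replicates 3 and 2 were nearly level, at 32.9 and 32.0 CPM. Sp5 and Notum had replicate 2 highest, then 1, then 3, as had 9.15% of tested genes. Replicate 1 exceeded the mean of the other two SOX17KO libraries by 3.31 in log2 CPM for Nkd1 and 2.82 for Apcdd1, and 17 and 33 tested genes, themselves included, were at least as high on this difference. For Axin2 the difference was 0.51 and for Znrf3 0.47. For Notum it was -0.04 and for Rnf43 -0.13. Within SOX17KO the SD of log2 CPM was 2.03 for Nkd1 and 1.80 for Apcdd1, against a median of 0.20 over all tested genes; in Control it was 0.10 for Nkd1 and 0.32 for Apcdd1, with a median of 0.09.

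Other genes of the pathway were counted from lists chosen with earlier results known. The shares over all tested genes were 3.67% called higher and 3.20% lower. Of 29 tested genes of the receptor complex and beta-catenin transduction, 1 was called higher (Lef1) and 0 lower, and their median log2 fold change was 0.03. Lef1, the TCF/LEF factor that is itself a Wnt target, was at 14.2, 2.63 and 6.04 CPM in replicates 1, 2 and 3 of SOX17KO, the order of Nkd1, against 0.398, 0.431 and 0.609 CPM in the Control libraries. It was not called without any one Control library (highest edgeR adjusted p 0.109) or with limma-voom. In Control replicate 1 Lef1 was under the filter's level of 0.415 CPM, so it passed the filter only with SOX17KO libraries. Of 16 other tested Wnt targets, 4 were called higher (Lgr5, Lef1, Mmp7 and Jun) and 0 lower, with a median of 0.08. Jun, an AP-1 factor, was at 59.2, 37.8 and 55.9 CPM in replicates 1, 2 and 3 of SOX17KO, against 19.5, 18.9 and 18.1 CPM in the Control libraries. Lgr5, an R-spondin receptor and stem cell marker, was at 123, 139.5 and 173 CPM in replicates 1, 2 and 3 of SOX17KO, against 47.8, 48.4 and 38.3 CPM in the Control libraries, with no overlap (log2 fold change 1.70, edgeR adjusted p = 0.00171). It was the 1 called gene of the 3 tested on the R-spondin axis; Rspo1, Rspo2 and Rspo3 had 0 counts in every library and Rspo4 had 0 in SOX17KO and 2 in Control.

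Of 26 other Wnt antagonists, 11 were tested. Of these, 3 were called higher and 0 lower, with a median log2 fold change of 0.50. Over all tested genes 3.67% were called higher and 3.20% lower. Dact2 in every Control library and Dkk2 in Control replicate 1 were under the filter's level of 0.415 CPM. Both passed the filter only with SOX17KO libraries, where they were high. The count of higher calls and the median are therefore partly set by the filter. Dkk2, a secreted Dickkopf protein that binds LRP6 and Kremen receptors, was at 12.4, 9.74 and 7.37 CPM in replicates 1, 2 and 3 of SOX17KO, against 0.362, 0.478 and 0.609 CPM in the Control libraries. Dkk2 rose on the log2 scale by 4.34 (edgeR adjusted p = 0.000718) and was called without each library in turn. Dact2, a Dishevelled-binding protein like the Nkd proteins, was at 6.76, 3.42 and 3.77 CPM in replicates 1, 2 and 3 of SOX17KO, against 0.109, 0.0957 and 0.228 CPM in the Control libraries. Dact2 rose on the log2 scale by 4.94 (edgeR adjusted p = 0.00186), with 11 counts over the Control libraries, and was called without each library in turn. Tle4, a Groucho corepressor that binds TCF/LEF factors, was at 35.6, 38.6 and 34.8 CPM in replicates 1, 2 and 3 of SOX17KO, against 24.2, 23.2 and 21.6 CPM in the Control libraries (log2 fold change 0.66, edgeR adjusted p = 0.00824), and was not called without any one Control library. The SOX17KO and Control libraries did not overlap for any of the 3, which were named because they were called higher. Over all tested genes SOX17KO lay above Control without overlap for 14.0%.

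**Figure D5:**
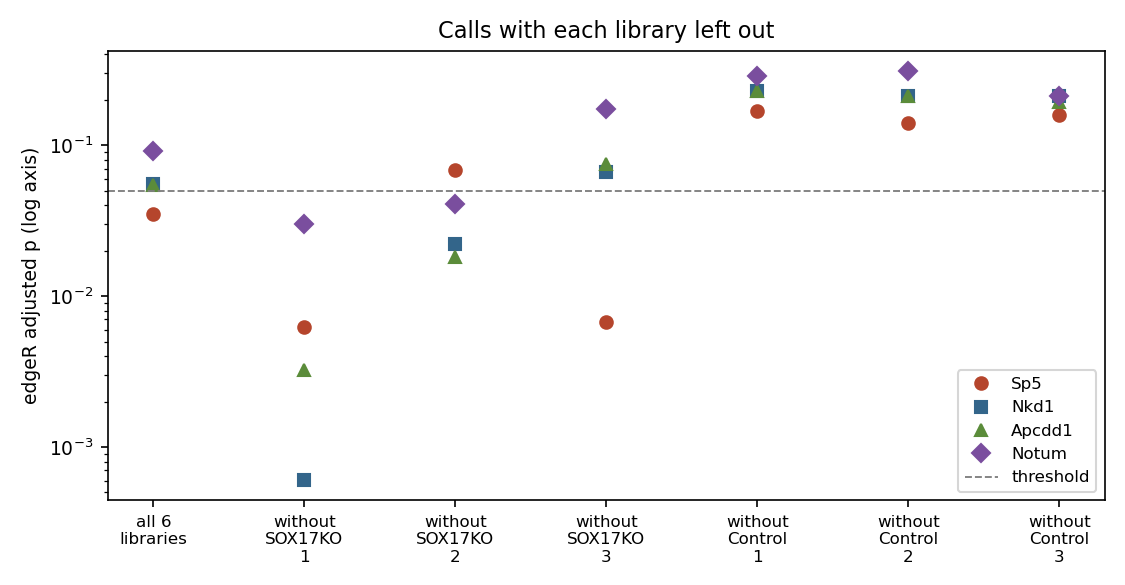
Adjusted p of edgeR (log axis) for Sp5, Nkd1, Apcdd1 and Notum with all 6 libraries and with each library left out; the dashed line is the threshold of 0.05. Without SOX17KO replicate 1 all 4 lie below the line, and 22.2% of all tested genes were called. Without any one Control library all 4 lie above it, and 1.56% to 1.64% of all tested genes were called. With all 6 libraries that share was 6.87%.

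Position and other cell types were checked beside these results. The members lie on chromosomes 2, 8, 10, 11, 13 and 18, with 5 of the 10 on chromosome 11, where the median log2 fold change of 1010 tested genes was 0.01. None lies on chromosome 5, 6 or 12, which had 787, 586 and 429 tested genes. Those held 132, 63 and 5 lower and 15, 14 and 65 higher calls, against 26 lower and 33 higher on chromosome 11. For the 20 tested genes nearest each tested member, the median log2 fold change was between -0.12 and 0.11. Fibroblast markers were near 0: the 8 of them summed to 0.420, 0.176 and 0.111 CPM in replicates 1, 2 and 3 of SOX17KO, against 0.0724, 0.0478 and 0 CPM in the Control libraries, with Col3a1, Dcn, Lum and Twist2 at 0 counts throughout. Of the endothelial markers 1 of 6 was tested and the sums were 1.98 to 2.79 CPM in SOX17KO and 1.96 to 2.63 CPM in Control, mostly from Vwf, with Emcn at 0 and Tek at 0.840 CPM in SOX17KO replicate 1. The 7 immune markers in the table, of which 2 were tested, had a sum that came to 5.19, 12.4 and 14.0 CPM in replicates 1, 2 and 3 of SOX17KO, with Control at 8.56 to 11.0 CPM, mostly from Cd68, with Cd3e at 0. The 9 epithelial markers came to 9953 CPM in SOX17KO replicate 1 and to 14169 and 14123 CPM in replicates 2 and 3, with Control between 13369 and 14149 CPM. Of these 9, 8 were tested, and Epcam and Cldn7 were called higher, beside 3.67% of all tested genes. Neither was called without any one Control library or with a block for the replicate number. Epcam was also not called without SOX17KO replicate 2 or 3 or with no low-count filter. Krt8, Krt18 and Krt19 were lowest in SOX17KO replicate 1. The part of these marker levels in the member results was not tested.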

How the data were processed

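Per the submitters' processing notes, Bowtie, RSEM and the mouse build mm9 were used, with no versions. Annotation, strand setting and filters are not stated in those notes. Expected counts were deposited as 1 table (estimated reads per gene) with 1 column per library, matched by name. Per the labels, the libraries were directional and poly(A)-selected. Values were rounded to whole numbers; between 26.6% and 30.3% of values per library had decimals.

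SOX17KO was compared with Control over the whole table by edgeR 4.0.16 in R 4.3.3 (quasi-likelihood test, TMM, filterByExpr with minimum count 10 and minimum total 15, Benjamini-Hochberg adjustment over 12137 genes, called below 0.05). CPM use TMM-adjusted library sizes. An SE is the log2 fold change divided by the square root of F. DESeq2 1.42.0 and limma 3.58.1 were alternatives, beside other normalizations and filters, unrounded values, a block for the replicate number and the omission of each library; library quality weights were added after seeing the data. Ratios within a library used counts plus 0.5.

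Members, lists and the rule for named genes (the members, Sox17, up to 3 called genes or else the most abundant tested gene of each list, and the 5 genes most like the member with the smallest p) were chosen with earlier results of these data known. Gene order, start windows and chromosomes came from RefSeq on GRCm38.p6, which matched 99.0% of tested genes. On simulated counts for SOX17KO against Control (12073 genes), the test recovered 0% of 1.25-fold, 80% of 2-fold and 96% of 4-fold changes, and 13 of its 150 calls were false. Changes were planted only in genes with higher counts, and both groups were drawn with the same spread. The real SOX17KO libraries spread more than Control, so these rates do not cover members with few counts or far-apart libraries. Figures were drawn with matplotlib 3.10.9.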

Additional observations from a re-analysis of the deposited data

How the results depend on the processing

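The count of all genes called was 834. It was 1439 with DESeq2, 326 with the replicate block, 2062 with library quality weights and between 192 and 2708 with a library left out. The share of all tested genes called was 6.87% in the main fit, 5.19% with no low-count filter and 10.7% with DESeq2. It was 6.25% with limma-voom, 2.69% with the replicate block and 16.99% with quality weights. Without SOX17KO replicate 1, 2 or 3 the share was 22.2%, 6.16% or 5.49%. Without any one Control library it was 1.56% to 1.64%. Members called higher numbered 1; they numbered 3 with no low-count filter (Nkd1, Apcdd1 and Sp5), 4 with DESeq2 (these and Wif1), 0 with limma-voom, 0 with the replicate block, 3 with quality weights and 0 to 3 with a library left out. Members called lower numbered 0; DESeq2 and quality weights each called 1 (Notum), as did the fit without SOX17KO replicate 1 or 2, so the range was 0 to 1. The cause of these shifts was not tested.

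Of 120 values of the 8 tested members under alternatives, 97 kept direction and call, 14 gained a call, 6 lost one and 3 changed sign. The changes of sign were all in Rnf43, whose log2 fold change of 0.02 was -0.0017 with no low-count filter, -0.019 without SOX17KO replicate 3 and -0.056 without Control replicate 3; its range with a library left out was -0.056 to 0.092. Sp5 lost its call with limma-voom, the replicate block (log2 fold change 1.90, edgeR adjusted p = 0.0741) and 4 of the 6 libraries left out. Of 255 values of the 17 other genes named by rule, 205 kept direction and call, 38 lost a call, 6 gained one and 6 changed sign. Epcam, Cldn7, Mmp7, Lef1, Tle4, Cp, Zfp512 and Gde1 lost theirs without each Control library, and of these all but Mmp7 and Lef1 also with the replicate block. Cd68 changed sign with limma-voom (-0.072) and without SOX17KO replicate 2 (-0.030) or 3 (range with a library left out -0.15 to 0.46), and Vwf with quality weights (0.044), without SOX17KO replicate 2 (0.0083) and without Control replicate 3 (range -0.14 to 0.030); neither was called in any. Deviations of same-numbered libraries from their group means correlated at -0.19, -0.05 and -0.18 for replicates 1, 2 and 3. No library pair with the same number was the closest. As deviations within a group sum to 0, these values cannot tell whether the numbers pair the libraries. The difference in the log2 ratio of Rnf43 to Znrf3 lay between -0.38 and -0.08 with a library left out. The summed CPM of the members was 736 ± 129.6 in SOX17KO and 658 ± 44.0 in Control (SD, n = 3 each), and 662 in SOX17KO without replicate 1. That value, the Wif1 ratio and the Nkd1 rank without replicate 1 were added after seeing the data. Depth limits Nkd2, Wif1, Apcdd1 and Sp5 in Control most of the members, with 1, 3, 65 and 100 counts over its 3 libraries.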

Other observations

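Of the members with low levels in Control, Nkd1, Apcdd1 and Wif1 were highest in SOX17KO replicate 1, whereas Sp5 was highest in replicate 2. Nkd1, Apcdd1 and Wif1 summed to 180.0, 11.8 and 31.6 CPM in replicates 1, 2 and 3 of SOX17KO, against 3.51, 3.87 and 4.45 CPM in the Control libraries. These genes were grouped after their values were seen, and Nkd1 alone gave 148 CPM of the sum in SOX17KO replicate 1. Axin2, Notum and Rnf43, the abundant members, came to 587, 538 and 544 CPM in replicates 1, 2 and 3 of SOX17KO, against 602, 562 and 524 CPM in the Control libraries, so that their share of the feedback RNA was 66.3%, 83.5% and 80.0% in the SOX17KO libraries.

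Shisa2, 1 of the other Wnt antagonists and not called, was chosen after its values were seen. It was at 4.39, 0.395 and 1.11 CPM in replicates 1, 2 and 3 of SOX17KO, against 0.507, 0.335 and 0.457 CPM in the Control libraries (log2 fold change 2.18, edgeR adjusted p = 0.197). Its SOX17KO libraries were in the order seen for Nkd1 and Apcdd1, which 18.9% of all tested genes shared, but replicate 2 lay within Control. In Control replicate 2 Shisa2 was under the filter's level of 0.415 CPM, so it passed the filter only with SOX17KO libraries. Among the tested genes next to Nkd1 on chromosome 8, Snx20 was at 3.32, 0.132 and 1.55 CPM in replicates 1, 2 and 3 of SOX17KO, against 0.543, 0.574 and 0.304 CPM in the Control libraries (edgeR adjusted p = 0.322).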
